A study of Mus musculus with 10 samples.

Results

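Eicosanoids are signalling lipids made from arachidonic acid, and 9 mouse genes of their synthesis were followed here in bone marrow neutrophils. The genes were chosen by name for their place in the pathway: Pla2g4a, which encodes the enzyme that releases arachidonic acid; Ptgs1, Ptgs2 and Ptges of prostaglandin synthesis; Alox5, Alox5ap, Lta4h and Ltc4s of leukotriene synthesis; and Alox15, a 12/15-lipoxygenase gene. A gene was taken as measured where a probe set names it and no other gene. This held for 8 of the 9, with 1 probe set each, out of 19938 genes with such a probe set. Ptgs1, which encodes the constitutive cyclooxygenase, was not analysed here because no probe set is paired with it in the array annotation.

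In a stimulated phagocyte, cytosolic phospholipase A2 cuts arachidonic acid from membranes. Cyclooxygenases turn it into prostaglandin H, which synthases such as that of Ptges convert to prostaglandin E. Alternatively 5-lipoxygenase, helped by its activating protein, makes leukotriene A, which Lta4h hydrolyses to leukotriene B, a strong neutrophil attractant, or Ltc4s conjugates to glutathione in eosinophils and mast cells. Neutrophils are known as a main source of leukotriene B, and much of the control lies in enzyme activity and location, which arrays of RNA do not measure.

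The 10 arrays fall into 4 groups of C57bl/6 cells labelled as from female mice of 10 weeks. They are Lcn2 knockout cells after fMLP (2 arrays), wild type cells after fMLP (2 arrays), unstimulated Lcn2 knockout cells (3 arrays) and unstimulated wild type cells (3 arrays). fMLP is a formylated peptide of bacterial type that activates neutrophils, and it was given at 10 µM for 20 minutes at 37 °C. In all groups marrow was taken out of the leg bones, red cells were lysed, and the cells between layers of 81% and 62% Percoll were collected, so the cells were enriched by density and not sorted. The knockout allele is not described further. The labels do not tell whether replicates came from separate mice or whether unstimulated cells also stood at 37 °C, so p-values measure only the spread between these arrays.

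Values are RMA signals on a log2 scale. The targeted gene, Lcn2, which encodes the granule protein lipocalin 2, stood at 8.09 to 9.60 on the 5 knockout arrays and at 13.88 to 14.16 on the 5 wild type arrays. Unstimulated replicates 1 and 2 of both genotypes (array set 1) had a narrower spread of values than the other 6 arrays (array set 2), with interquartile ranges of 1.64 to 1.68 against 2.47 to 2.59. fMLP arrays were therefore set against unstimulated replicate 3 of the same genotype, the unstimulated arrays of set 2. That left 1 reference array per genotype. Its spread was not measured and was assumed to be that of the pairs of arrays, those of set 1 included. Knockout replicate 2 after fMLP stood apart, with Snap25, a neuron gene, at 13.43 against 7.36 to 8.78 on the other 9 arrays, so each fMLP result is also given without it, which leaves 1 knockout array whose spread is assumed to be that of the other groups. Sex-linked genes went against the labels. The Y-linked gene Eif2s3y gave 5.36 to 5.44 on the other 3 fMLP arrays, 6.48 on knockout replicate 2 after fMLP, 9.59 to 9.83 on the unstimulated arrays of set 2 and 6.77 to 7.22 on those of set 1. Xist, which female cells express, stood at 9.83 to 11.12 on the fMLP arrays and at 6.88 to 7.82 on all 6 unstimulated arrays. fMLP and the source of the cells therefore cannot be told apart in any fMLP difference below. Neutrophil markers were high in all groups, with median signals of 13.28 to 13.72 after fMLP, 13.73 to 13.82 on the unstimulated arrays of set 2 and 12.28 to 12.72 on those of set 1.

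After fMLP, Ptgs2 stood higher on all 4 arrays than on both unstimulated arrays of set 2, as did 11.9% of all genes. Pla2g4a, Alox15, Alox5ap and Ltc4s stood lower on all 4, as did 20.2% of all genes. Alox5 and Lta4h, on the way to leukotriene B, differed by -0.18 and 0.19 with all arrays. Averaged over both genotypes, with all 10 arrays, 0 of the 8 genes passed an adjusted p below 0.05 in limma, although Pla2g4a and Alox15 were below 0.05 before adjustment. Of all 14070 genes tested, 0.192% were called. With array weights on the same 10 arrays, Pla2g4a (limma adjusted p = 0.0420) and Alox15 (adjusted p = 0.0494) passed as lower. So did 0.469% of all genes. The differences of these 2 genes were those of the unweighted fit (-0.81 and -1.55). The weights therefore changed only the estimated spread. Without knockout replicate 2 after fMLP, Pla2g4a and Alox15 fell and 0 genes rose, where 6.72% of all genes were called, 2.35% lower and 4.36% higher. In wild type cells alone 0 genes passed with all arrays (0.0% of all genes), 1 being below 0.05 before adjustment, and Alox15 fell without that knockout array (1.43% of all genes), which lowers the estimated spread shared by all groups. In knockout cells alone 0 passed with all arrays (0.0% of all genes) and 0 without replicate 2 (0.362% of all genes), and before adjustment 2 were below 0.05 in each fit. The median difference of the 8 genes was -0.14 with all arrays, beside -0.02 for all genes tested. With unstimulated wild type replicate 3 left out, its level was estimated from knockout replicate 3 and the gap between genotypes on array set 1. The differences were then 0.86 for Ptgs2, -0.93 for Pla2g4a, -1.63 for Alox15 and -0.55 for Alox5ap. With unstimulated knockout replicate 3 left out and estimated likewise from wild type replicate 3, they were 0.95, -0.69, -1.47 and -0.34 for the same genes. None of the 8 was called in either fit.

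**Figure D1:**
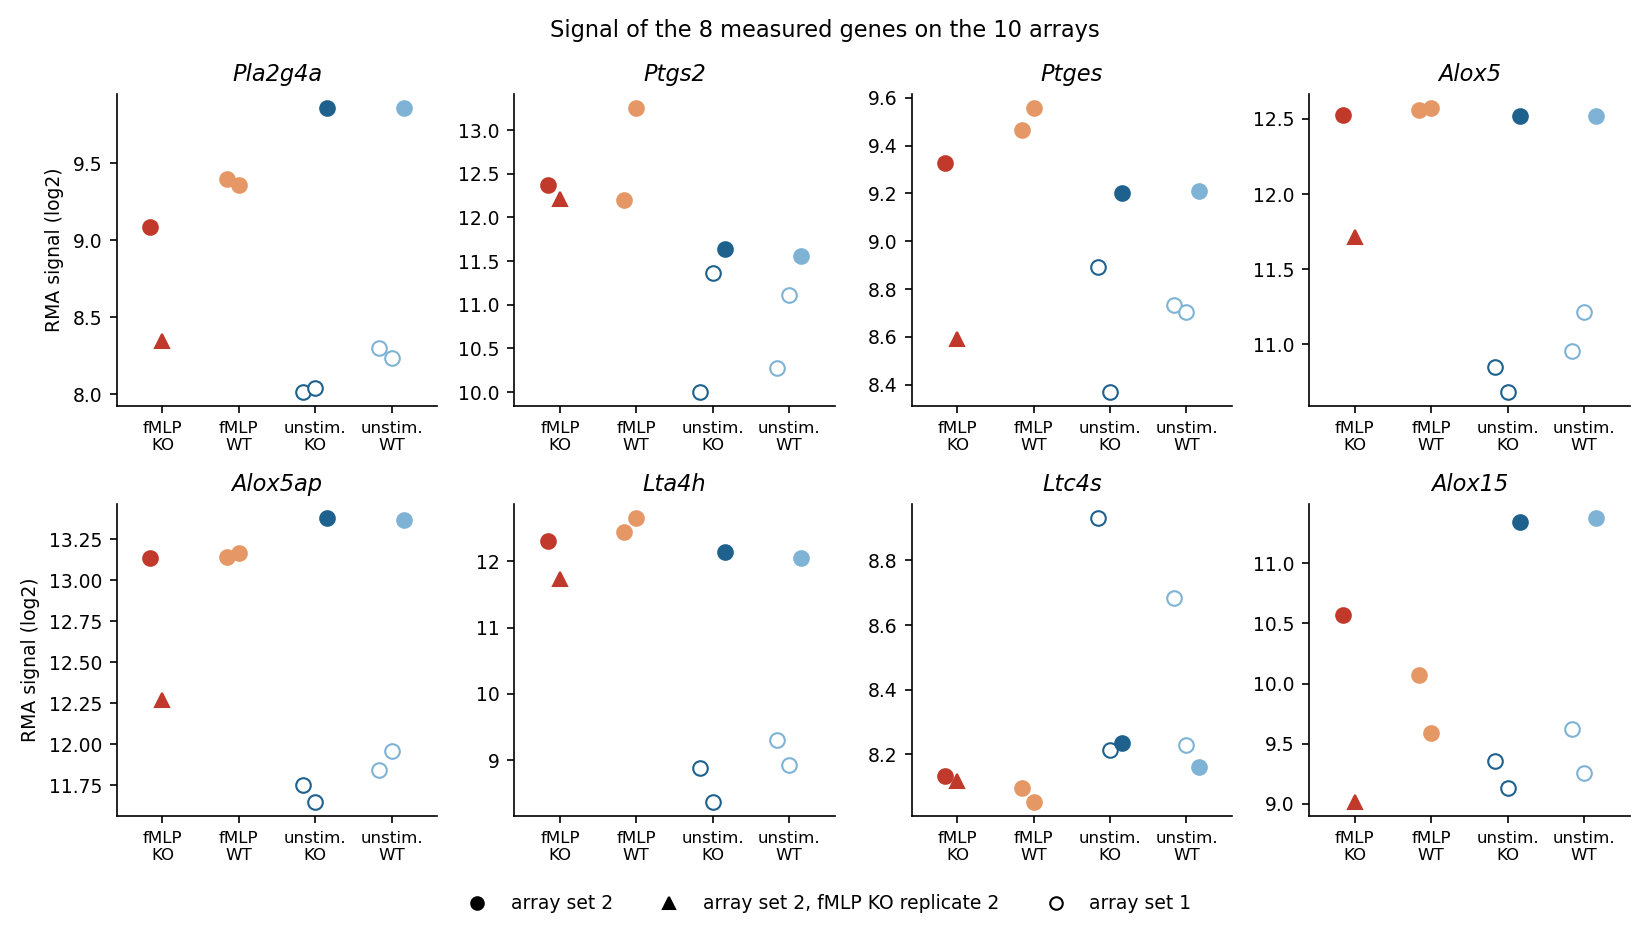
RMA signal (log2, vertical axes with their own ranges that do not start at 0) of each of the 8 measured genes on every array, with knockout and wild type cells after fMLP at the left and unstimulated knockout and wild type cells at the right. Filled points are array set 2, open points array set 1, and the triangle is knockout replicate 2 after fMLP; Ptgs2 sits at 12.20 to 13.26 after fMLP, above all 6 unstimulated arrays.

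Ptgs2 encodes the inducible cyclooxygenase and is a textbook immediate early gene, switched on within minutes of a signal. Its signal was 12.37 and 12.21 in knockout cells after fMLP and 12.20 and 13.26 in wild type cells after fMLP. Unstimulated replicate 3 gave 11.64 in knockout cells and 11.56 in wild type cells. On array set 1 the unstimulated values were 10.00 and 11.36 in knockout cells and 10.28 and 11.11 in wild type cells. All 4 fMLP arrays were above all 6 unstimulated arrays, and wild type replicate 2 after fMLP was the highest. The difference was 0.91 on the log2 scale (SE 0.45, limma adjusted p = 0.514), which is 1.87-fold, and 0.94 (SE 0.43, limma adjusted p = 0.245) without knockout replicate 2. By size it was the 108th highest of 14070 genes, but it did not pass the test. The spread between replicates was wide: wild type replicate 2 minus replicate 1 was 1.06 after fMLP, and the same gap was 1.36 in unstimulated knockout and 0.84 in unstimulated wild type cells. Without wild type replicate 2 after fMLP the difference was 0.64, and without wild type replicate 1 it was 1.17.

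Other immediate early genes were tested on the same arrays. Of 26 tested, 4 rose (Plk2 by 2.44, Fosl1 by 2.40, Atf3 by 2.32 and Nr4a1 by 2.00, limma adjusted p = 0.00867 to 0.0498) and 0 fell, with a median of 1.23. In that fit 0.192% of all genes were called in either direction. Plk2 encodes a kinase and the other 3 encode transcription factors. Of all genes tested, 11.9% were higher on all 4 fMLP arrays than on both unstimulated arrays of set 2. On all 4 fMLP arrays, 16 of the 26 were higher than on both unstimulated arrays of set 2. With all arrays Ptgs2 was not called, and the interval of its difference was -0.17 to 1.98.

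Pla2g4a encodes cytosolic phospholipase A2 alpha, the enzyme that frees arachidonic acid for both branches. It stood at 9.09 and 8.35 in knockout cells after fMLP and at 9.40 and 9.36 in wild type cells after fMLP, against 9.86 in unstimulated knockout and 9.86 in unstimulated wild type replicate 3. The 4 fMLP arrays were all below both, with knockout replicate 2 the lowest. On array set 1 the unstimulated arrays lay at 8.02 to 8.30, below every fMLP array. The difference was -0.81 (SE 0.20, limma adjusted p = 0.243), the 116th lowest of all genes. Without knockout replicate 2 after fMLP it fell by 0.63 (SE 0.10, limma adjusted p = 0.00871). By genotype and without that array, the differences were -0.77 in knockout (limma adjusted p = 0.0836) and -0.48 in wild type cells (adjusted p = 0.114).

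Pla2g4a and Ptgs2 lie next to each other on chromosome 1, with 2 genes between them (Gm19136 and Ptgs2os), 0 of them protein coding. Their start regions are shown because the enzymes act in sequence and the differences of these neighbours had opposite signs. The sequences are from RefSeq on build GRCm38.p6, run 250 bases before to 50 bases after the annotated start, and are written along the gene; the arrays' own build is not given in the sources used here. Capitals mark matches to 7 motifs, searched on either strand. The core of a cyclic AMP response element was searched as ACGTCA, and the E-box as CACGTG. The letters for a C/EBP site were TTGCGCAA, and for an AP-1 site TGANTCA. A GC box was searched as GGGCGG. An NF-kB site was searched as GGGANTTCC, and a TATA box as TATAAA.
Ptgs2, chr1:150099781-150100080, plus strand: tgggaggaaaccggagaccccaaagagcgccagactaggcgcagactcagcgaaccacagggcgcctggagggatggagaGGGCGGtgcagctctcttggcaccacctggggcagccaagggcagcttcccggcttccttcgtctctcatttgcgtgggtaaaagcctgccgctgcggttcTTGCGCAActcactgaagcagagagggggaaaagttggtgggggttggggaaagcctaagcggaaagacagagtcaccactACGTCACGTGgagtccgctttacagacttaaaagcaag
Pla2g4a, chr1:149961241-149961540, minus strand: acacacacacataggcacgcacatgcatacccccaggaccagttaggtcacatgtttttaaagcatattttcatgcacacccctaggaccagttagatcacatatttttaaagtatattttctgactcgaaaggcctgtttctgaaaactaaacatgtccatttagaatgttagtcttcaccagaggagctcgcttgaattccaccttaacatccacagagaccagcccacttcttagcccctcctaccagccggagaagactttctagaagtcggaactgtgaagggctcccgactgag
Positions are counted from the annotated start, and the start used in these cells was not measured. In the Ptgs2 window the cyclic AMP response element core lay at bases 13 to 18 and overlapped the E-box at 17 to 22. The C/EBP letters lay at -69 to -62 and the GC box at -170 to -165. Over the 32851 promoters of the table, 7.51% hold the cyclic AMP response element core, 7.15% the E-box, 0.183% the C/EBP letters and 35.7% the GC box. The Pla2g4a window held none of the 7 motifs, of which the AP-1 letters are in 7.81%, the NF-kB letters in 1.68% and the TATA box in 13.6% of promoters. A further annotated Pla2g4a start, not shown, had a TATA match on the opposite strand. These matches describe letters, not binding. Entries were found for 7 of the 9 genes, and the GC box was also in those of Ptges (2 matches) and Alox5 (1 match).

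Ptges encodes the inducible microsomal prostaglandin E synthase, which takes the product of Ptgs2. Its signal was 9.33 and 8.59 in knockout cells after fMLP and 9.47 and 9.56 in wild type cells after fMLP, against 9.20 and 9.21 in unstimulated knockout and wild type replicate 3. After fMLP 3 arrays were higher than both and knockout replicate 2 was lower. The difference was 0.03 (SE 0.23, limma adjusted p = 0.970), and 0.21 (SE 0.15, adjusted p = 0.472) without knockout replicate 2. The interval with all arrays was -0.52 to 0.58, so a moderate change of Ptges in either direction would not have been told apart.

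In the leukotriene branch, Alox5 encodes 5-lipoxygenase. It stood at 12.53 and 11.71 in knockout cells after fMLP and at 12.56 and 12.57 in wild type cells after fMLP, with 12.52 in both unstimulated replicate 3 arrays. Apart from knockout replicate 2, these 5 values of set 2 span 12.52 to 12.57. The difference was -0.18 (SE 0.22, limma adjusted p = 0.800) with all arrays and 0.03 (SE 0.12, adjusted p = 0.931) without knockout replicate 2, when the interval was -0.24 to 0.29.

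Alox5ap encodes the membrane protein that presents arachidonic acid to 5-lipoxygenase. It gave 13.13 and 12.27 in knockout cells and 13.14 and 13.16 in wild type cells after fMLP, against 13.38 and 13.37 in unstimulated knockout and wild type replicate 3. The fMLP arrays were all lower, 3 of them by about the same amount. The difference was -0.45 (SE 0.22, limma adjusted p = 0.514), or -0.23 (SE 0.10, adjusted p = 0.224) without knockout replicate 2, and did not pass in either fit.

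Lta4h encodes leukotriene A4 hydrolase, the last step to leukotriene B. Its signal was 12.30 and 11.73 in knockout cells and 12.45 and 12.65 in wild type cells after fMLP, against 12.14 and 12.05 in unstimulated knockout and wild type replicate 3. The 3 arrays other than knockout replicate 2 were higher than both. The difference was 0.19 (SE 0.22, limma adjusted p = 0.786), and 0.33 (SE 0.18, adjusted p = 0.326) without knockout replicate 2. Ltc4s, the leukotriene C4 synthase gene, stood at 8.05 to 8.13 on the 4 fMLP arrays, just under the 8.24 and 8.16 of unstimulated knockout and wild type replicate 3. These values lie near the median of all probe sets on these arrays (7.98 to 8.02). The difference was -0.10 (SE 0.22, limma adjusted p = 0.891).

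Alox15 encodes an enzyme that oxygenates arachidonic acid at other carbons and is known from eosinophils and resident macrophages. Its signal was 10.57 and 9.01 in knockout cells after fMLP and 10.07 and 9.59 in wild type cells after fMLP. Unstimulated replicate 3 gave 11.34 in knockout and 11.38 in wild type cells, above all 4. The unstimulated arrays of set 1 stood at 9.13 to 9.62, within the range after fMLP. The difference was -1.55 (SE 0.40, limma adjusted p = 0.263), the 12th lowest of all genes, and without knockout replicate 2 Alox15 fell by 1.16 (SE 0.17, limma adjusted p = 0.00723). In wild type cells alone, in the fit without that knockout array, it fell by 1.54 (SE 0.22, limma adjusted p = 0.0163), a signal 0.343 times that of the unstimulated array. In knockout cells the difference was -0.77 (adjusted p = 0.288), from a single fMLP array.

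Markers of eosinophils differed on the same arrays. Of 7 eosinophil genes measured, 7 were lower on all 4 fMLP arrays than on both unstimulated arrays of set 2 (20.2% of all genes). With all arrays 4 of the 6 tested fell, all of them granule protein genes: the differences were -3.31 for Epx, -3.17 for Ear6, -2.73 for Prg2 and -1.27 for Prg3 (limma adjusted p = 0.00867 to 0.0498). In that fit 0.192% of all genes were called in either direction. The median of the eosinophil list was -2.002. The summed linear signal of this list was 1803 to 3309 after fMLP, against 13541 to 14210 on the unstimulated arrays of set 2 and 3313 to 4711 on those of set 1. Epx, eosinophil peroxidase, stood at 7.49 to 8.08 after fMLP, about the median of the array, and at 11.11 to 11.21 on the unstimulated arrays of set 2. When knockout replicate 2 after fMLP was left out, the median of the list was -1.83. In a mixed cell sample such as this, fewer cells of a type and less RNA per cell cannot be told apart, and the part of eosinophils in the lower Alox15 signal was not tested.

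Of 11 monocyte and macrophage markers, 7 were lower on all 4 fMLP arrays than on both unstimulated arrays of set 2 (20.2% of all genes). Of 10 tested, 1 fell with all arrays (Ccr2 at -2.08, limma adjusted p = 0.0300), in a fit that called 0.192% of all genes. The medians of these markers were -0.83 with all arrays and -0.61 without knockout replicate 2. Their summed signal was 3511 to 6377 after fMLP, against 9936 to 13779 on the unstimulated arrays of set 2 and 4484 to 5089 on those of set 1. Of 11 basophil and mast cell genes, 7 were lower on all 4 fMLP arrays than on both unstimulated arrays of set 2 (20.2% of all genes). Of the 7 tested, 1 fell with all arrays (Cpa3 at -1.57, limma adjusted p = 0.0490), and the list's summed signal, to which Hdc, the histidine decarboxylase gene, added more than any other gene on the arrays of set 2, was 5011 to 9881 after fMLP, against 8882 to 9570 on the unstimulated arrays of set 2 and 4121 to 4653 on those of set 1. Of the 13 neutrophil markers, 5 were lower and 0 higher on all 4 fMLP arrays than on both unstimulated arrays of set 2. Of all genes, 20.2% were lower and 11.9% higher. With all arrays 0 of the 13 markers were called, with a median of -0.21. Their summed signal was 113817 to 159950 after fMLP. On the unstimulated arrays it was 160850 to 162759 in set 2 and 79084 to 99912 in set 1. For genes of T and NK cells the median difference was 0.76 and for those of B cells 0.20, with 0 called with all arrays. On all 4 fMLP arrays, 5 of 9 T and NK cell genes were higher, as were 11.9% of all genes, and 1 was lower. Of 8 B cell genes, 1 was higher and 2 were lower, near the shares of all genes (11.9% higher and 20.2% lower). The part of these cells in the Pla2g4a and Alox15 differences was not tested.

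**Figure D2:**
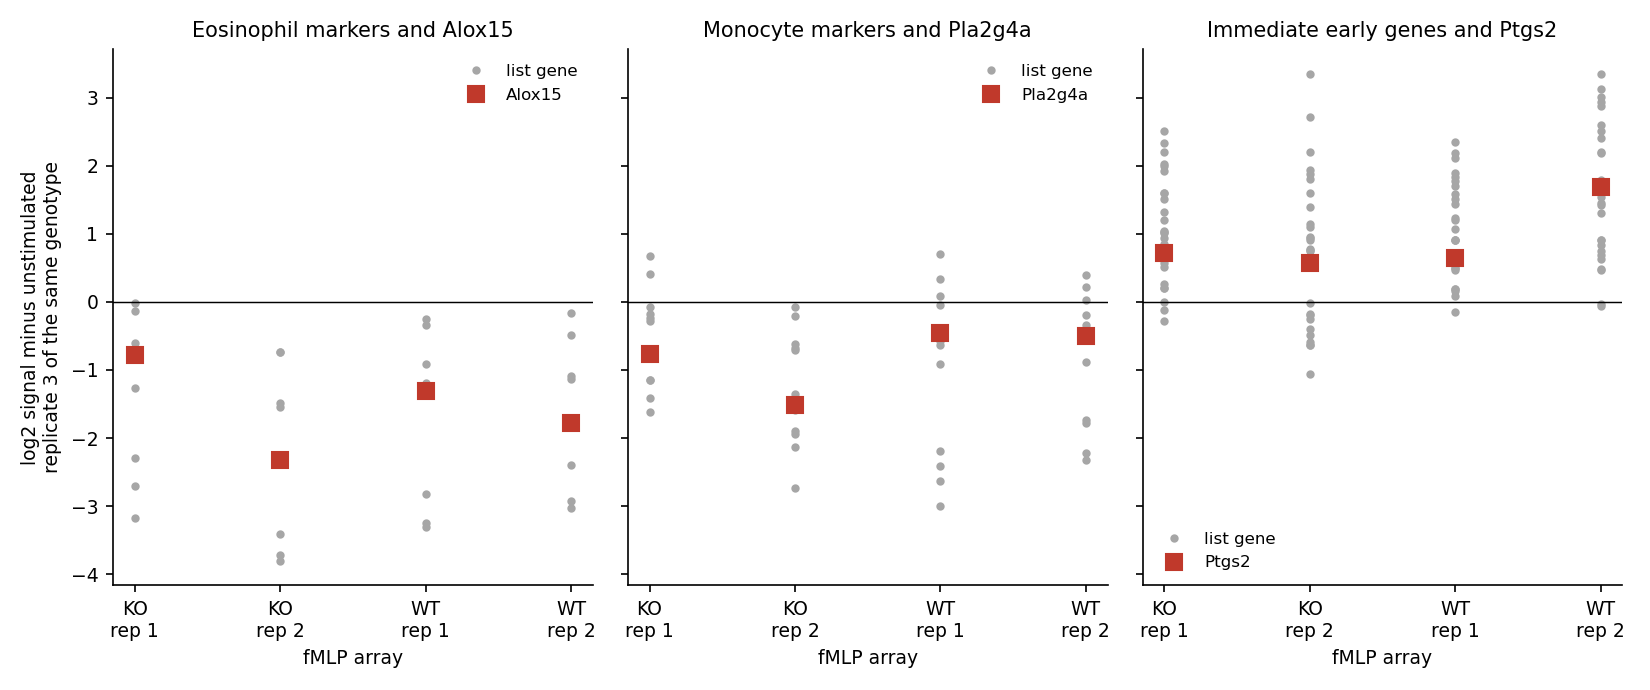
Log2 signal of each fMLP array minus unstimulated replicate 3 of the same genotype (vertical axis), for the 2 knockout and 2 wild type arrays, with list genes as grey points and the named gene as a red square. Alox15 lies below 0 on all 4 arrays among the eosinophil markers, Pla2g4a below 0 among the monocyte markers, and Ptgs2 above 0 among the immediate early genes.

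Groups that do not overlap were also counted, without a model. Against both unstimulated arrays of set 2, all 4 fMLP arrays were higher for 1 of the 8 genes (Ptgs2) and lower for 4 (Pla2g4a, Alox5ap, Ltc4s and Alox15), where 11.9% of all genes were higher and 20.2% lower. Against all 6 unstimulated arrays, 1 was higher (Ptgs2, with 6.8% of all genes) and 1 lower (Ltc4s, with 7.28% of all genes). An exact permutation test of 4 arrays against 2 cannot give a two-sided p below 0.133, which each of the 5 non-overlapping genes reached.

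**Figure D3:**
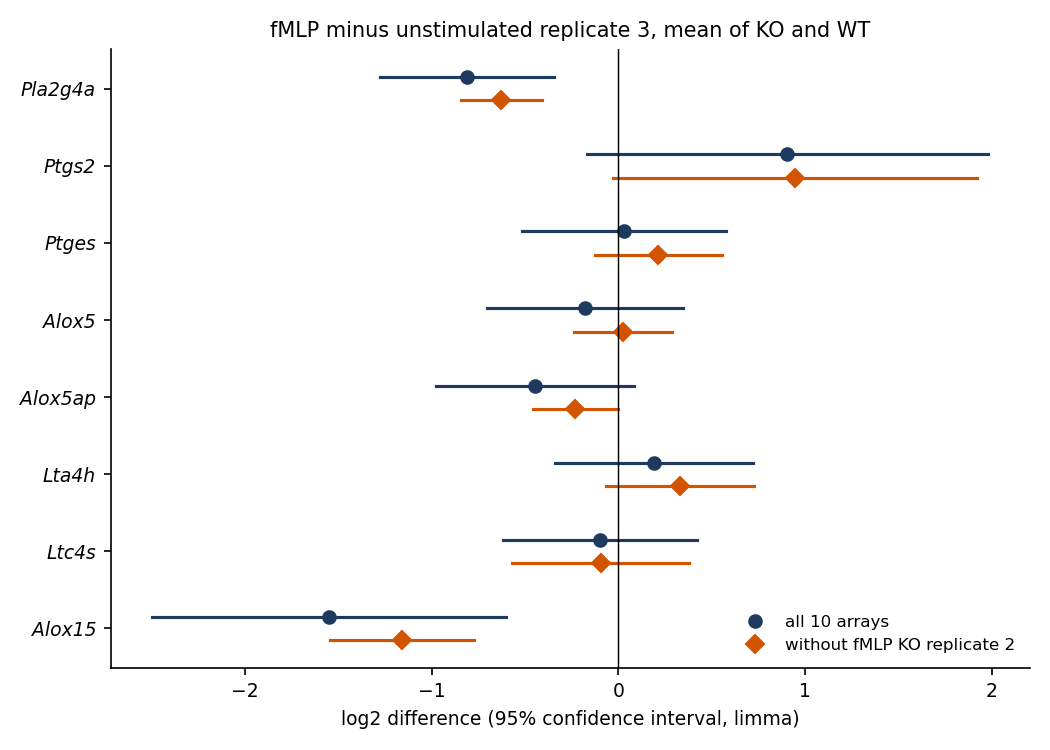
Difference between fMLP and unstimulated replicate 3, averaged over knockout and wild type, on the log2 scale (horizontal axis) for the 8 genes, with 95% confidence intervals from limma. Circles use all 10 arrays and diamonds leave out knockout replicate 2 after fMLP; Pla2g4a and Alox15 lie left of 0 in both, with intervals of -1.28 to -0.35 and -2.49 to -0.60 with all arrays.

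In size, the gap between the array sets was larger than the fMLP difference (mean of both genotypes, with and without knockout replicate 2) for 7 of the 8 genes. The exception was Ptgs2, for which both were about equal. Among unstimulated arrays, set 2 minus set 1 was 3.22 for Lta4h, 2.02 for Alox15, 1.71 for Pla2g4a, 1.60 for Alox5, 1.57 for Alox5ap, 0.91 for Ptgs2 and 0.53 for Ptges, and -0.32 for Ltc4s. The median of all genes was 0.09, with quartiles of -0.68 and 1.19. The signals of Lta4h on the 4 arrays of set 1 were 8.88 and 8.37 in knockout and 9.31 and 8.92 in wild type cells. A comparison that leaves out the array set takes in this shift: the fMLP difference was then 0.33 for Pla2g4a, 0.60 for Alox5ap, 2.34 for Lta4h and -0.20 for Alox15, and 0 of the 8 genes were called.

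Loss of Lcn2 gave no called difference in any of the 8 genes. After fMLP, knockout minus wild type was lowest for Pla2g4a at -0.66 (SE 0.23, limma adjusted p = 0.515) and highest for Ltc4s at 0.05. Here 0 genes of the 14070 passed (0.0%), and 1 of the 8 was below 0.05 before adjustment. In the fit without knockout replicate 2, Pla2g4a was at -0.29 (interval -0.57 to -0.01) and Alox15 at 0.74 (interval 0.23 to 1.24), both at a limma adjusted p of 1.0, and the single knockout array had 10.57 for Alox15 against 10.07 and 9.59 in wild type cells. When knockout replicate 1 was left out instead, so that replicate 2 alone stood for the knockout, 6 of the 8 genes were called lower in limma, between -1.03 (Pla2g4a) and -0.82 (Lta4h and Alox15), as were 24 of 54 related genes, of which 3 more were called higher. In that fit 28.9% of all genes were called lower and 12.9% higher.

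In unstimulated cells, knockout minus wild type ran between -0.30 for Lta4h (interval -0.80 to 0.20) and 0.10 for Ltc4s (interval -0.39 to 0.59). Limma called 1 of 14070 genes (0.00711%), which was Lcn2, and 0 of the 8, of which 0 were below 0.05 before adjustment. For Ptgs2 the difference was 0.02, but its interval of -0.99 to 1.03 includes changes of the size measured after fMLP. On the replicate 3 arrays alone, knockout minus wild type ran between -0.03 for Alox15 and 0.09 for Lta4h. The response to fMLP itself, knockout minus wild type, differed most for Pla2g4a at -0.66 (SE 0.39, limma adjusted p = 0.992), and 0 of the 8 and 0.0% of all genes passed that test. None of the 8 was below 0.05 before adjustment either. With knockout replicate 2 left out, that difference was -0.29 for Pla2g4a (SE 0.19) and 0.77 for Alox15 (SE 0.34). These 2 values rest on a single knockout array after fMLP.

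**Figure D4:**
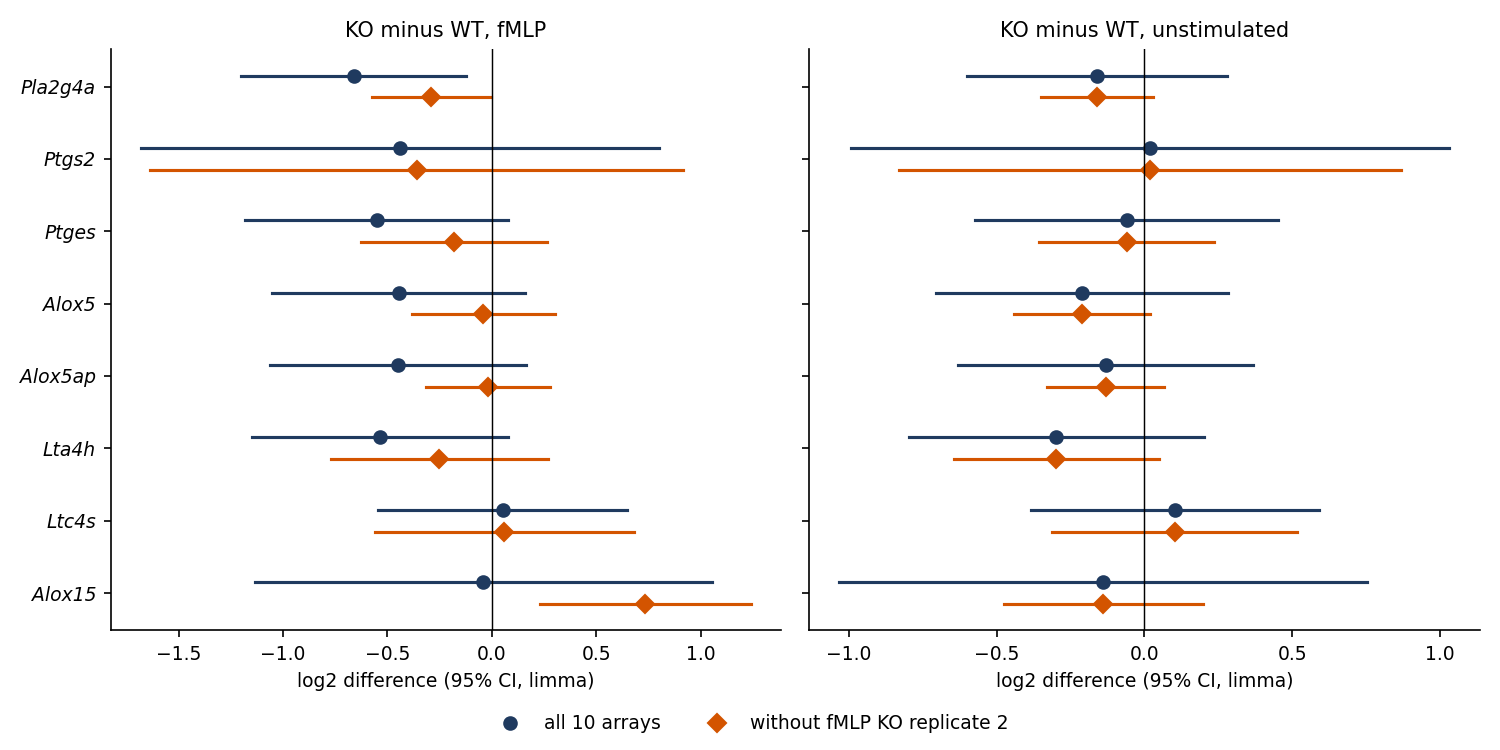
Knockout minus wild type on the log2 scale (horizontal axes) after fMLP (left) and without stimulation (right) for the 8 genes, with 95% confidence intervals from limma; circles use all 10 arrays and diamonds leave out knockout replicate 2 after fMLP. All intervals of the unstimulated comparison include 0. After fMLP the interval of Pla2g4a lies below 0 and, without that array, that of Alox15 above it. Neither gene was called in these fits, and Alox15 was at -0.04 with all arrays.

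Around the 9 genes, 85 related genes in 6 lists cover arachidonate release, other synthases, breakdown and receptors; 78 have a probe set and 54 were tested. With all arrays 0 of the 54 passed in the fMLP comparison, and 3 were below 0.05 before adjustment. Without knockout replicate 2 after fMLP, 2 rose and 1 fell, a share near that of all genes in this fit (4.36% higher and 2.35% lower). Ephx1, a microsomal epoxide hydrolase, stood at 9.03 and 8.88 in knockout and 9.15 and 8.17 in wild type cells after fMLP, against 7.85 in unstimulated knockout and 7.56 in unstimulated wild type replicate 3. Its difference was 1.10 (SE 0.26, limma adjusted p = 0.233), and 1.14 (adjusted p = 0.0287) without that array, which made it the only gene of these lists past 1 on this scale. Mgll, a lipase that frees arachidonic acid from an endocannabinoid, rose by 0.49 in the same fit (limma adjusted p = 0.0407), and Mgst1, a microsomal glutathione transferase, fell by 0.47 (adjusted p = 0.0407). With all arrays these were 0.31 for Mgll and -0.67 for Mgst1, which did not pass.

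By list, with all arrays, the 21 phospholipase and arachidonate handling genes had a median of -0.08, 8 above 0 and 13 below. Lpcat2, an acyltransferase that remakes phospholipids, was at -0.22 and Pla2g7, a platelet-activating factor hydrolase, at -0.47, and neither passed. Of 7 other prostanoid synthase genes, Cbr1, a carbonyl reductase, stood at 0.36, Tbxas1, thromboxane synthase, at -0.08 and Ptges3, the cytosolic prostaglandin E synthase, at -0.26. Among 7 genes of other lipoxygenases and leukotriene C4 handling, the median was -0.15. Of the 8 breakdown genes, Cyp4f18, which in mouse neutrophils inactivates leukotriene B, was at -0.23, and Ptgr1, which also acts on it, at -0.44. None of these genes passed the test. Several of these values rested on knockout replicate 2 after fMLP. Without that array the differences were -0.03 for Lpcat2, -0.18 for Pla2g7, 0.37 for Cbr1 and 0.14 for Tbxas1. They were -0.34 for Ptges3, 0.08 for Cyp4f18 and -0.29 for Ptgr1.

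Receptors gave no calls. The 8 prostanoid receptor genes tested had a median of -0.11, with Ptger4, a prostaglandin E receptor, at 0.40 (limma adjusted p = 0.642; 0.63 and adjusted p = 0.0687 without knockout replicate 2). Its signal was 10.33 and 9.41 in knockout and 9.94 and 10.47 in wild type cells after fMLP, against 9.67 and 9.59 in unstimulated knockout and wild type replicate 3. Ltb4r1, the high-affinity leukotriene B receptor, stood at 11.01 and 9.97 in knockout and 11.09 and 11.16 in wild type cells after fMLP, against 10.83 and 10.71. The 3 arrays other than knockout replicate 2 were higher for both receptors, and the difference of Ltb4r1 was 0.03 (limma adjusted p = 0.970), or 0.29 (adjusted p = 0.189) without that array.

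**Figure D5:**
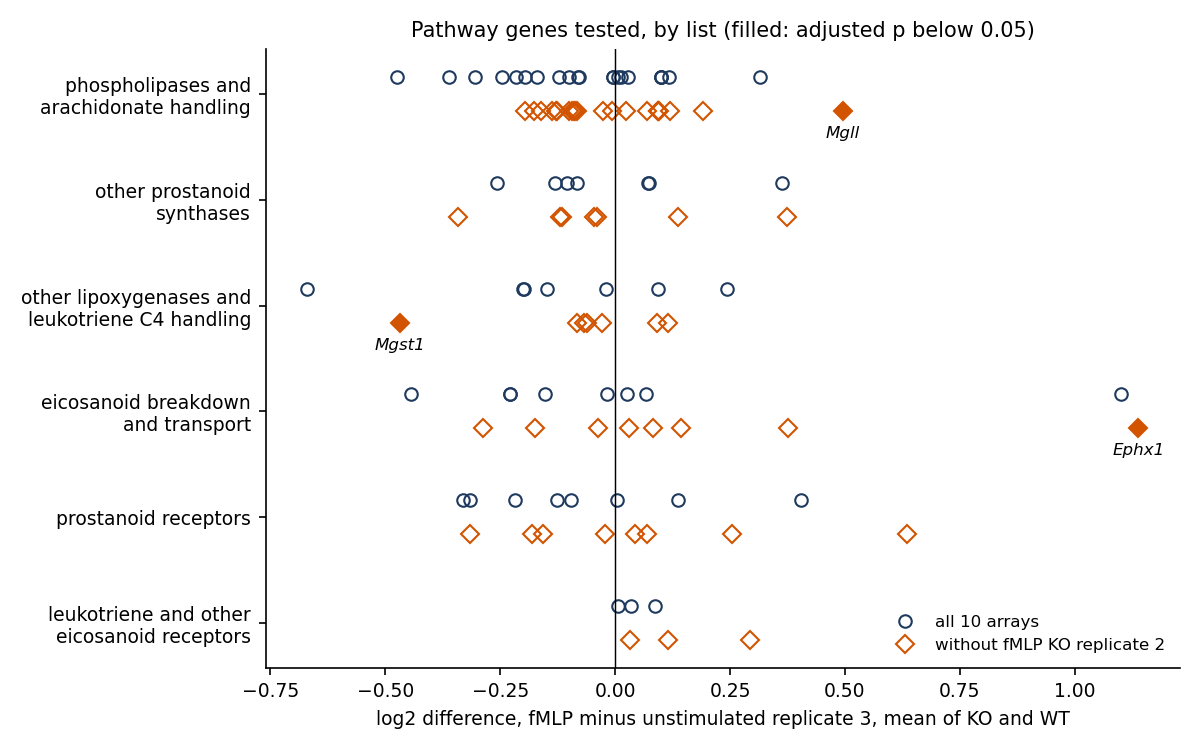
Difference between fMLP and unstimulated replicate 3, mean of knockout and wild type, on the log2 scale (horizontal axis) for the 54 related genes by list; circles use all 10 arrays, diamonds leave out knockout replicate 2 after fMLP, and filled points have an adjusted p below 0.05. The 3 filled points are Ephx1, Mgll and Mgst1, and 0 points are filled with all arrays.

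Genes of like pattern were sought by Pearson correlation over the 10 arrays after the mean of each array set was removed; these values share the arrays and their processing and are a description. Ptgs2 was most like Trem1 (0.936), a receptor that amplifies inflammation, Dusp1 (0.928), a MAP kinase phosphatase, Snx12 (0.911), Men1 (0.905) and Il1b (0.903), the gene of interleukin 1 beta, and these stayed at 0.912 to 0.938 without knockout replicate 2 after fMLP. Alox15 was most like Acrbp (0.971), Cd48 (0.965), Rps19 (0.963), Olfr1148 (0.963) and Rbm5 (0.954). Pla2g4a was most like Rsbn1l (0.992), Nfat5 (0.990), Cklf (0.989), Zfhx3 (0.989) and Gdpd3 (0.987). Without knockout replicate 2 these 5 stayed at 0.9655 to 0.9766 with Pla2g4a, and those of Alox15 at 0.9195 to 0.979. The order changed: Pla2g4a was then most like Dynll2 (0.985), which was at -0.159 over all 10 arrays. Alox15 stayed closest to Acrbp, but Selenoh came next (0.966), from 0.297 over all 10 arrays.

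For the leukotriene branch, Alox5 came closest to Vamp3 (0.995), Ncf1 (0.987), a subunit gene of the phagocyte oxidase, Ammecr1l (0.986), Mmp9 (0.985), the gene of a granule protease, and Gnai2 (0.985). Alox5ap was most like Man2b1 (0.993), Elovl1 (0.993), Samd9l (0.992), Sos2 (0.991) and Gsr (0.991). Lta4h was most like Inhba (0.977), Bloc1s6 (0.977), Tprgl (0.968), Wdr82 (0.964) and Bcs1l (0.958). Ptges came closest to Aldh9a1 (0.988), Elp5 (0.986), Racgap1 (0.984), Ech1 (0.983) and Ifitm6 (0.979), and Ltc4s to Dnah17 (0.979), Ins2 (0.973), Npb (0.972), Mylk2 (0.967) and Galr3 (0.966). For the 6 genes other than Ptgs2 and Ltc4s, knockout replicate 2 after fMLP was the lowest array of set 2.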

How the data were processed

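Gene expression was measured on 10 Affymetrix arrays. Per the submitters' processing notes, the deposited values are RMA signals from Affymetrix Expression Console. The base of their logarithm is not given in the sources used here and was read as log2 from the span of the values; whether the arrays were processed together is not given either. RMA subtracts background, equalises distributions and summarises probes, so differences in the authors' log2 values near background are compressed. Of 35556 probe sets, 21789 name 1 gene, 1621 several and 12146 none in GEO's platform annotation. A gene took its brightest single-gene probe set and was tested if at least 2 arrays were above the median of all values (8.18), which left 14070 genes.

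All 10 arrays were fitted in limma 3.58.1 (R 4.3.3, statmod 1.5.0 for the random block) with 6 means (group by array set, told apart by an interquartile range under or over 2), which left 4 residual degrees of freedom. p-values were two-sided and Benjamini-Hochberg adjusted over all tested genes; 0.05 was the threshold. The fit was tested on simulated data. The 9 genes, the lists and the tests were chosen with earlier results of these data known. Named were the 9 genes, Lcn2, in each related list the genes called, up to 4 with the smallest p and 2 with the highest level, up to 4 immediate early genes, and per gene the 5 of most like pattern; examples in the text come from these. Arrays have no depth; their number limits the precision. Alternatives were other filters, probe set rules, normalizations, array set terms, weights, moderation, replicate blocks and leaving out each array.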

Additional observations from a re-analysis of the deposited data

How the results depend on the processing

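The fMLP difference kept its sign under 23 alternatives for Ptgs2 (0.64 to 1.17), Pla2g4a (-0.998 to -0.626) and Alox15 (-1.94 to -1.16), leaving aside the 2 alternatives without the array set. Many of these alternatives do not test the sign, since the estimate stayed as it was. Among them were other filters, probe set rules, moderation, weights, the random block and leaving out an array of set 1. The number of the 8 genes called in the fMLP mean was 0 with all arrays weighted equally, and 2 (Pla2g4a and Alox15) with array weights, which also use all arrays. Over all fits that leave out an array, the added ones below included, it was 0 to 4 in the fMLP mean, 0 to 4 in knockout and 0 to 4 in wild type cells, 0 to 6 for knockout over wild type after fMLP and 0 to 3 for the difference of responses. The most genes called among all 14070 in these fits were 3492 in the fMLP mean, 4301 in knockout and 1524 in wild type cells, 5888 for knockout over wild type after fMLP and 2527 for the difference of responses. Apart from wild type cells, the highest came with knockout replicate 1 after fMLP left out. In wild type cells the highest was in set 2 alone without knockout replicate 2 after fMLP, an added fit. Alternatives chosen after seeing the data were both without knockout replicate 2 after fMLP, which left 1 knockout array after fMLP. The first used trend and robust moderation, the other array set 2 alone, on 1 residual degree of freedom. In set 2 alone the differences in the mean were 0.94 for Ptgs2, 0.33 for Lta4h, -0.63 for Pla2g4a and -1.16 for Alox15. In wild type cells 1 of the 8 was called with array weights, where 163 of all genes were called higher and 65 lower.

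Over all genes the 27 called in the fMLP mean became 10 with no filter, 10 with every probe set on its own, 17 with median centring, 109 with array weights, 48 with an additive array set term, 10 with no array set term and 0 in array set 2 alone. The lowest was 0 when arrays were left out, with 945 without knockout replicate 2, 946 with trend and robust moderation as well, and 3119 in set 2 alone without it. Among the 54 related genes, the 0 called became 11, 3, 2 and 9 without knockout replicate 1, without replicate 2, with trend and robust moderation as well, and in set 2 alone without replicate 2.

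Same-numbered arrays deviated together when unstimulated (correlation of 0.464) and hardly after fMLP (0.0598). The value after fMLP depends on the gap between the knockout arrays, of which replicate 2 stood apart. Whether same-numbered arrays share more than a number was therefore not settled. The main fit took them as unpaired. A random replicate block within the 6 means called 0 of the 8 genes and 28 of all. A fixed replicate block without the array set called 7 of the 8 in the mean, 5 in knockout and 6 in wild type cells, 11758 of all genes and 44 of the 54. Under this replicate block, called values turned direction for Pla2g4a (0.90 in the mean, 0.65 in knockout, 1.15 in wild type cells), Alox5 (1.42 in the mean, 1.30 in knockout), Alox5ap (1.13, 0.97 and 1.29) and Lta4h in knockout cells (3.30). Values that were not called turned for Alox15 (0.47 in the mean, 0.52 in knockout, 0.42 in wild type cells) and for Ptges in knockout cells (0.32). It sets fMLP arrays against unstimulated replicates 1 and 2, all of array set 1, so the difference between the sets enters it in full. The log2 values near 8 lie around the median of an array, which limits what can be said of Ltc4s.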
